A study of Mus musculus with 3 samples.

Results

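The regions described here are stretches of H3K27me3 in mouse small intestinal crypts that held exactly 1 Suz12 peak. H3K27me3 peaks on chromosomes 1 to 19 were joined into a domain where the gap between neighbours was at most 5000 bp, and a domain was kept when 1 Suz12 peak, no more and no fewer, overlapped it by at least 1 bp. Of 7624 domains, 460 (6.03%) held any Suz12 peak and 180 (2.36%) held exactly 1. These 180 are the single-Suz12 domains, and their members are the 1537 H3K27me3 peaks inside them, of 25897 on these chromosomes. All 1537 peaks were used, with no filter beyond the one already in the deposited list. The members were chosen by the called positions of peaks in both lists. Peak values entered the choice only through the lowest value that each list holds. The single-Suz12 domains took 180 of the 1464 Suz12 peaks on these chromosomes. A further 1273 lay in the 280 domains with 2 or more, and 11 lay in no domain.

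The study mapped PRC2 and its mark by chromatin immunoprecipitation followed by sequencing (ChIP-seq), in which an antibody pulls down a protein or a modified histone together with its DNA, and the DNA is sequenced and located in the genome. Crypts came from C57BL/6 mice with an Lgr5Gfp-CreERT2 allele, a reporter and inducible Cre placed at a gene of crypt base stem cells, and all 3 libraries share this genotype. The 3 libraries were 1 precipitated with an antibody against Suz12, 1 with an antibody against H3K27me3, and 1 input without antibody, for which no file was used here. Chromatin was fixed with 1% formaldehyde and sonicated to about 200 to 300 bp, so a position finer than this is not resolved. No age, sex or treatment beyond this is given in the labels used here. The chromatin is that of whole crypts, so stem, progenitor, Paneth and any other cells that remained were averaged. Defining genes of the crypt could not be checked, because no mm9 annotation was used here.

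Suz12 is a core subunit of Polycomb repressive complex 2 (PRC2), the enzyme complex that places methyl groups on lysine 27 of histone H3. The trimethylated form, H3K27me3, is also bound by PRC2 through its subunit Eed, a contact that helps the mark extend from sites where the complex first settles. Such sites are known in mammals to be CpG-rich stretches, often at the promoters of developmental regulators. In the gut, PRC2 is known for keeping genes of other lineages silent in crypt cells. A domain with a single Suz12 peak gives the simplest arrangement in which to describe where the complex sits relative to its mark.

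With 1 library per antibody, no value has a replicate error and no test was run. Each peak has a deposited score, called the peak value below. It ranks peaks within its own list, and both lists begin at a value of 8. The sources used here do not say what it measures. A Suz12 site under that minimum is in no list, so "single" means 1 listed peak. Shares carry exact 95% binomial intervals (Clopper-Pearson) and medians carry exact 95% order-statistic intervals. Both cover counting error only and treat domains as independent. The read depth behind the lists is unknown. Positions are mm9, counted from 1.

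Single-Suz12 domains were of middling length. Their median length was 9.58 kb (quartiles 5450 and 14802 bp), from 869 to 50869 bp. The median number of H3K27me3 peaks was 7 (quartiles 4 and 11), at most 31, and peaks covered a median of 56.8% of the domain. Domains with 2 or more Suz12 peaks had medians of 18.7 kb and 14 H3K27me3 peaks, and the 7164 domains with none had medians of 1093 bp and 2 peaks. Just past the limit of the rule, the 113 domains with exactly 2 Suz12 peaks had medians of 13218 bp and 9 H3K27me3 peaks. The strongest H3K27me3 peak of a domain had a median value of 24.98 with 1 Suz12 peak, 25.7 with exactly 2, 27.3 with 2 or more and 11.7 with none. In strongest value the single-Suz12 domains thus lay close to domains with more Suz12 and far from those without, a side-by-side description of groups whose lengths differ.

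The Suz12 peaks that stood alone were mostly weak and narrow within their list. Their median value was 10.7 (quartiles 9.14 and 12.8) and their median width 336 bp, close to the size of the sheared fragments. Suz12 peaks in domains with 2 or more had a median value of 11.9 and a median width of 441 bp. Of the lone peaks, 41 of 180 (22.8%, interval 16.9 to 29.6) had a value under 9, within 1 unit of the list's minimum, against 14.2% in the richer domains. Only 7 of the 180 reached a value of 20, or 3.89%, against 12.9% in the richer domains. The nearest other Suz12 peak lay a median of 818795 bp away. It was within 20 kb for 6 domains.

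The joining gap decides which domains are kept. The largest gap inside a domain was at least 4000 bp in 19 of the 180, so these would have been split by a slightly stricter rule. In 18 domains the next domain began within 6000 bp and would have been joined by a slightly looser one. Of those 18, 1 had a neighbour that also held Suz12.

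Chromosome 11 held the most single-Suz12 domains, 25, with 250 member peaks. Chromosomes 2 and 7 held 16 each, chromosome 5 held 13, and chromosome 16 held 1. As a share of all domains with Suz12, single-Suz12 domains ranged from 11.1% on chromosome 16 (1 of 9) to 61.1% on chromosome 15 (11 of 18). Over all chromosomes used they were 180 of 460. These counts per chromosome are small, and no difference between chromosomes is read from them.

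**Figure D1:**
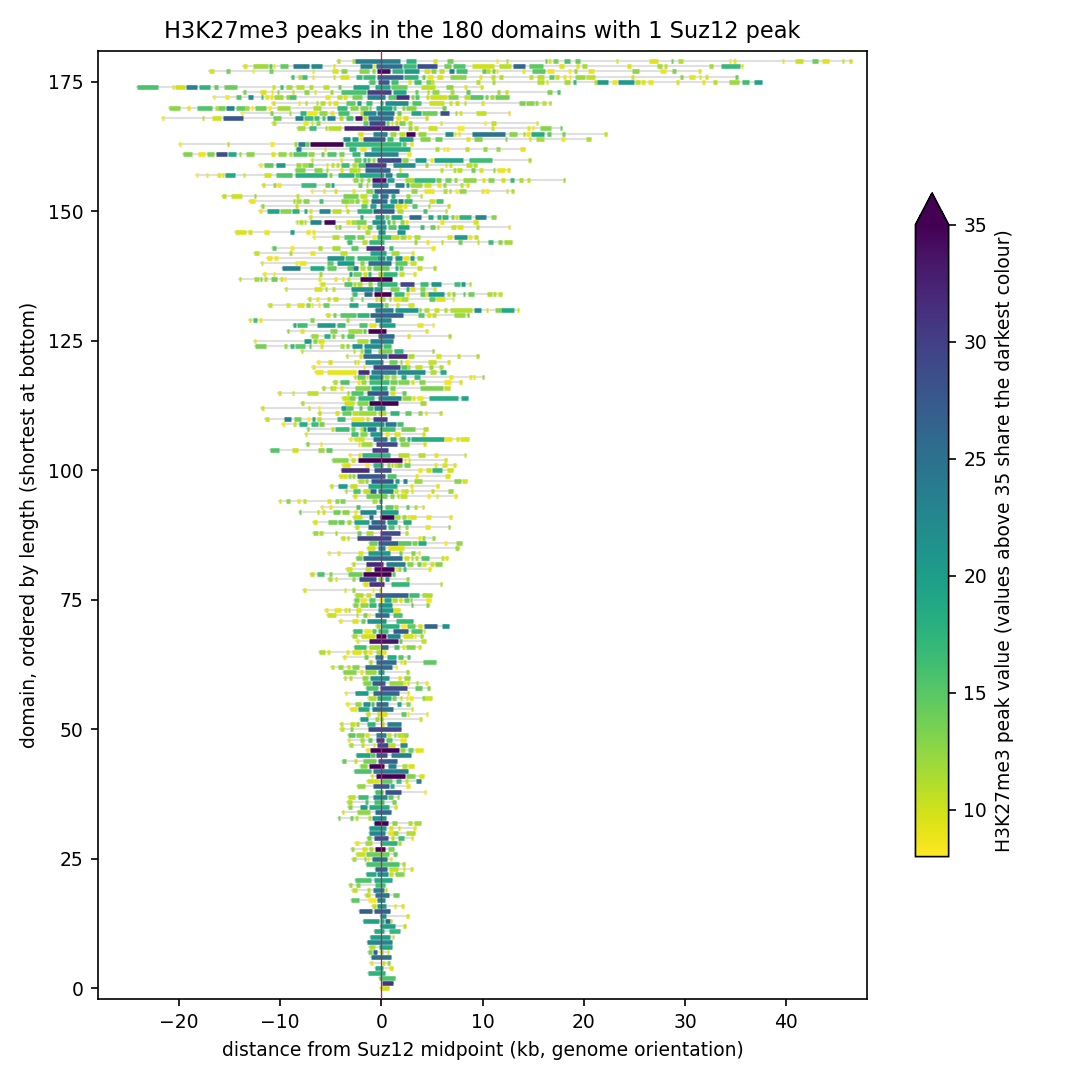
Every H3K27me3 peak of the 180 domains, placed by its distance in kb from the midpoint of the domain's Suz12 peak (red line) and coloured by peak value, with the shortest domain at the bottom. Dark, wide peaks lie along the red line, and the paler peaks to either side are narrower, while some long domains reach much further on one side than on the other.

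The Suz12 peak lay more often towards the middle of its domain than towards an end. Position was measured as the distance of the Suz12 midpoint from the domain centre, divided by the distance from the centre to the end, so that 0 is the centre and 1 the end. The median was 0.37 (interval 0.31 to 0.44), where an even spread along the domain would centre on 0.5. The even spread is a rough scale only. Most Suz12 midpoints lay in the central 50% of an H3K27me3 peak that is whole within the domain. That leaves less room for midpoints near an end, above all in short domains. How much this adds to the central share was not tested. In 121 of 180 domains (67.2%, interval 59.8 to 74.0) the midpoint lay in the central 50% of the length. The outer 20% of the length held 19 midpoints (10.6%, interval 6.48 to 16.0), and 1 more lay past the end. The central 20% held 46 (25.6%, interval 19.4 to 32.6). The innermost 10% held 18, exactly an even share. From 10% to 50% of the way to the end, the steps of 10% held 28, 27, 20 and 28 domains. Midpoints then thinned to 7 in the last step. These counts are small and carry no intervals, so no shape within the central 50% is read from them.

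**Figure D2:**
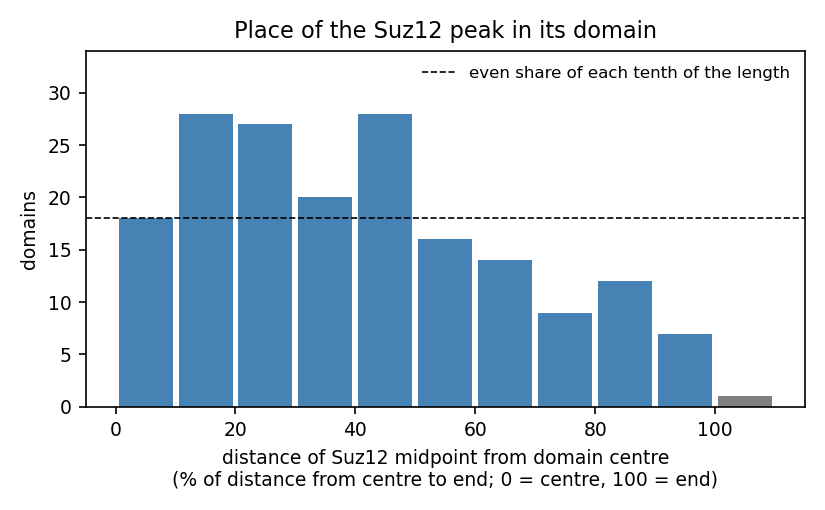
Number of domains by the distance of the Suz12 midpoint from the domain centre, as a percentage of the distance from centre to end. Bars up to 50% hold 18 to 28 domains and bars beyond it 7 to 16, the dashed line marks the 18 domains of an even spread, and the grey bar is the 1 domain whose Suz12 midpoint fell past its end.

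Neither side of the genome was favoured: 89 of 180 midpoints (49.4%, interval 41.9 to 57.0) lay left of the centre in genome coordinates. The same positions can be put as lengths on either side of Suz12. The longer side measured a median of 2.18 times the shorter one (interval 1.91 to 2.59, n = 179). This restates the distance from the centre and is no separate sign of asymmetry. The nearest domain end lay a median of 2674 bp from the Suz12 midpoint. In domains under 5 kb 24 of 37 midpoints (64.9%) were in the central 50%, from 5 to 10 kb 42 of 56 (75%), from 10 to 20 kb 40 of 61 (65.6%), and from 20 kb upward 15 of 26 (57.7%, interval 36.9 to 76.6). These intervals overlap, and no trend with length is read from them. When only the H3K27me3 peaks above the median value were joined, the share in the central 50% was 57.5% (interval 50.1 to 64.7).

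The 5 domains of at least 10 kb with Suz12 nearest the centre show that a central place and a strong mark did not always go together. The most central lay on chromosome 9 at 40679121-40692918, where Suz12 (value 9.74) sat at 0.152% of the way to the end. Its 8 H3K27me3 peaks had values, from left to right, of 12.1, 17.8, 12.9, 13.3, 14.9, 25.9, 9.27 and 11.2, and Suz12 lay on the 25.9. The domain on chromosome 15 at 102080170-102094607 was as central, but flat. Suz12 lay there on a peak of 12.1 among 14 peaks from 8.75 to 14.7, and 3 other peaks were stronger. Chromosome 9 at 54607313-54619507 was similar, with Suz12 on a peak of 11.3 while the strongest, 17.5, lay 1.31 kb away. The remaining central domains, on chromosome 9 at 55384403-55397290 and chromosome 2 at 155594432-155607557, had Suz12 on their strongest peak, at 31.4 and 22.0. The Suz12 peak of the former was 7532 bp wide and lay over 4 of the 7 H3K27me3 peaks. Its midpoint was on a peak of 23.6, and the strongest peak lay 1.79 kb away.

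At the other extreme, Suz12 sat at the very end of some long domains and still lay on their strongest peak. In all 5 domains of at least 10 kb with Suz12 nearest an end, the strongest H3K27me3 peak was the one under Suz12. On chromosome 14 at 46999158-47009400 the Suz12 midpoint was 109 bp from the end. Values from the far end towards it were 9.55, 12.9, 8.86, 10.4, 9.25, 12.5, 13.3 and 11.3, followed by 19.5 under Suz12. On chromosome 5 at 137495699-137507984 (Suz12 value 12) the same reading gave 10.1, 10.1, 8.21, 20.2, 15.1, 14.6, 15.3 and then 21.9 under Suz12. The 38.8 kb domain on chromosome 11 at 96974919-97013752 had Suz12 1249 bp from its left end on a peak of 27.4. Its peaks to the right ran out to 37.2 kb, with 20.5 and 20.3 as the highest, at 21.9 and 24.2 kb. The remaining pair lay on chromosome 7, at 52661000-52675295 with 23.6 under Suz12 and at 26089100-26101142 with 30.1.

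Most lone Suz12 peaks lay on 1 H3K27me3 peak that was far wider than they were. Suz12 overlapped 1 H3K27me3 peak in 174 domains, 2 in 3 domains, 4 in 2 domains and none in 1. The Suz12 peak was entirely within H3K27me3 in 153 of 180 domains (85.0%, interval 78.9 to 89.9). Among the 174, the H3K27me3 peak was the wider of the pair in 170. The 188 H3K27me3 peaks under Suz12 had a median width of 1561 bp (quartiles 1076 and 2139 bp). The offset between the Suz12 midpoint and the midpoint of its H3K27me3 peak had a median of 245 bp (quartiles 117 and 504 bp), about the length of a sheared fragment. The Suz12 midpoint was inside the H3K27me3 peak in 173 of the 174, and in the central 50% of it in 113 (64.9%, interval 57.4 to 72.0). As a place within the peak, this share resembles that of the place within the domain.

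A few domains break these patterns. They are named for that reason, outside the rule for named domains. On chromosome 13 at 22008987-22010924 the Suz12 peak (200 bp, value 8.90) lay between 3 H3K27me3 peaks of at most 12.5 and touched none. On chromosome 1 at 9956521-9957596 the domain was a single H3K27me3 peak of value 31.0, and the Suz12 peak (200 bp, value 9.76) only overlapped its end. This is 1 of 6 domains made of a single H3K27me3 peak, whose values ranged from 10.1 to 31.0.

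Suz12 usually lay on the strongest H3K27me3 peak of its domain. Among the 174 domains with at least 2 H3K27me3 peaks, this held for 126 (72.4%, interval 65.1 to 78.9). It lay on the widest peak in 124 (71.3%). The strongest peak was also the widest in 110 of the 174. In the chromosome 10 domain at 44245849-44248720 all 4 peaks lay under Suz12, so its place among the 126 was fixed. For scale, 1 peak made up a mean of 16.7% of the peaks of its domain, and the strongest peak a mean of 32.8% of the H3K27me3-covered bases and 19.4% of the domain length. All 3 numbers are well under 72.4%. No test was run on this difference. Suz12 lay on the second strongest peak in 24 domains, on the third in 15 and on a lower one in 8. In domains with 2 or more Suz12 peaks, the strongest H3K27me3 peak lay under Suz12 in 211 of 280 (75.4%). With exactly 2 this held in 85 of 113 (75.2%). Both groups had more Suz12 peaks to place and, unlike the 174, no minimum number of H3K27me3 peaks.

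**Figure D3:**
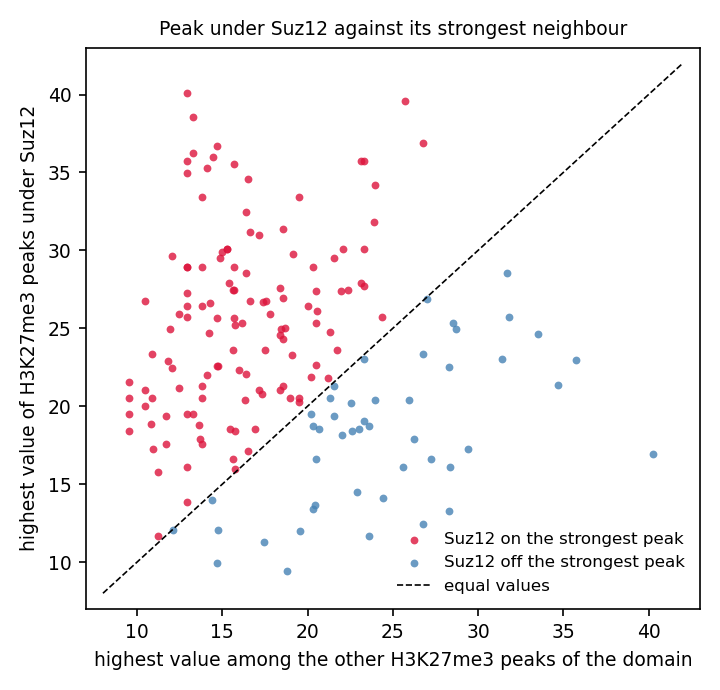
Highest H3K27me3 value under Suz12 (vertical axis) against the highest value among the domain's other H3K27me3 peaks (horizontal axis), 1 point per domain, for the 172 domains that have both. The 125 points above the dashed line of equal values are domains with Suz12 on the strongest peak, and the 40.3 at the far right is the strongest peak of all members, off Suz12.

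Where Suz12 was on the strongest peak, a lead over the rest follows from how the group was formed, so only its size is described. The strongest peak had a median value of 25.7 and led the next strongest by a median of 8.71 (quartiles 5.11 and 12.8, lowest 0.24, highest 27.1, n = 125). No lead from domains of another kind is set beside it. In the other 48 domains, Suz12 lay a median of 2038 bp from the midpoint of the strongest peak (quartiles 1348 and 3989 bp). The peak it lay on had a median value of 18.5, and fell short of the strongest by a median of 4.88 (interval 3.77 to 7.56, n = 47). In 12 of these 47 domains the shortfall was under 3, and in 25 of the 47 the strongest peak was the immediate neighbour. The shortfall varied widely, with an upper quartile of 9.09 and a highest of 23.3.

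Domains with Suz12 off the strongest peak were longer, with a median of 13584 bp (interval 10622 to 16313) against 9081 bp (interval 6901 to 10787). They held more H3K27me3 peaks, a median of 10 against 7. Suz12 was on the strongest peak in 26 of 31 domains under 5 kb (83.9%), in 45 of 56 from 5 to 10 kb (80.4%), in 42 of 61 from 10 to 20 kb (68.9%) and in 13 of 26 from 20 kb upward (50%, interval 29.9 to 70.1). A single peak made up a mean of 33.2%, 18.7%, 11.2% and 5.57% of the peaks in these groups. Suz12 values were a median of 10.4 on and 11.5 off the strongest peak, with overlapping intervals. The share in the central 50% was 66.7% on and 72.9% off, again with overlapping intervals. By Suz12 value, the share on the strongest peak was 68.2% (60 of 88, interval 57.4 to 77.7) above the median value and 76.7% (66 of 86, interval 66.4 to 85.2) at or below it. It was thus no higher for the stronger Suz12 peaks, and the intervals overlap.

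The domains with the largest shortfall show what was missed. On chromosome 8 at 72391717-72414839, Suz12 (517 bp, value 11.99) lay on a 5614 bp peak of value 16.9, while the strongest member of all, a 3220 bp peak of 40.3, lay 5.44 kb to its left. These were the 2 widest peaks of that domain. Chromosome 8 at 86394628-86402704 had Suz12 on a peak of 13.3 between peaks of 28.3 at 1.33 kb and 20.2 at 0.558 kb. On chromosome 5 at 137728467-137730570, only 2104 bp long, Suz12 lay on 12.5 beside a peak of 26.8 at 0.582 kb. A domain of 17964 bp on chromosome 18 had Suz12 on 21.4 and its strongest peak, 34.7, at 5.15 kb. The last lay on chromosome 15 at 102184052-102208595. Suz12 (value 18.9) sat there 2289 bp from the end on a peak of 23.0, and peaks of 35.8, 22.6 and 24.6 followed at 2.89, 6.70 and 10.6 kb.

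H3K27me3 was stronger under Suz12 than elsewhere in the same domain. Suz12 lay on 188 of the 1537 members. In the whole list 4.71% of peaks lay under Suz12, and since the rule fixed the members' number nothing is read from it. The median value of the 188 was 22.6 (quartiles 18.5 and 27.4), and that of the remaining 1349 members was 11.4 (quartiles 9.55 and 14.3), near the 11.2 of all 25897 peaks. Within domains, the median value under Suz12 exceeded the median of the other peaks by a median of 11.2 (interval 10.2 to 12.8, n = 172). It was higher in 165 of 172 domains (95.9%). In the 7 exceptions the difference reached -3.25, on chromosome 4 at 128723141-128730696, where Suz12 (value 9.59) lay on a peak of 9.44 among others with a median of 12.7.

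Width moved with value, and its part in this difference was not tested further than by bands of width. Among peaks of 500 to 1000 bp, the median value was 20.3 under Suz12 (n = 27) and 12.9 for the other members (n = 396). From 1000 to 2000 bp it was 23.0 (n = 90, quartiles 19.5 and 27.6) and 16.6 (n = 144, quartiles 12.9 and 20.3). From 2000 bp upward it was 25.7 (n = 57) and 18.4 (n = 18). Only below 500 bp were the medians near each other, at 12.3 (n = 14) and 10.5 (n = 791). For the whole list, the same 4 bands from narrow to wide had medians of 10.2, 13.0, 17.6 and 23.3.

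Domains with 2 or more Suz12 peaks showed the same contrast with slightly lower values under Suz12. There the 1033 peaks under Suz12 had a median of 19.95 and the 3758 others a median of 12.1. Median widths were 1229 and 452 bp, against 1561 and 430 bp in single-Suz12 domains.

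Lone Suz12 values were mostly packed near the list's minimum of 8 (quartiles 9.14 and 12.8). Among them, the value of the peak under Suz12 bore almost no relation to the value of the Suz12 peak. Whether this holds for a wider spread of Suz12 values was not tested. Across the 173 domains with at least 2 H3K27me3 peaks and at least 1 of them under Suz12, Spearman's rho was 0.05 and Pearson's r 0.13. Domains share the same 2 libraries, so these are descriptions. Suz12 value and domain length gave a rho of 0.14, and Suz12 value and Suz12 width 0.53. The value under Suz12 and the domain length gave 0.09.

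The 8 domains with the highest Suz12 values were as follows. The highest, 65.1, was on chromosome 2 at 18599304-18600567, in a domain of 3720 bp whose 4 H3K27me3 peaks had values of 26.8 under Suz12 and then 10.5, 9.65 and 9.55 at 1.21, 2.25 and 2.99 kb. The next, 41.4, was a Suz12 peak of 7532 bp on chromosome 9 at 55387157-55394688. It spanned 4 H3K27me3 peaks of 8.97, 31.4, 23.6 and 22.1, and the 3 peaks outside it had 8.68, 11.2 and 18.5. On chromosome 7 the Suz12 peak at 26099820-26101277 (value 27.3) lay on 30.1 at the end of a domain whose other 9 peaks ranged from 8.11 to 23.3. The chromosome 17 peak at 10510634-10511359 (value 26.2) was the only one of the 8 off the strongest peak, by 0.22, with 21.3 under it and 21.5 at 1.94 kb. On chromosome 11 at 97489486-97491700 a value of 21.9 went with 34.97 under Suz12 and 12.9 at most elsewhere. The chromosome 4 peak at 153513382-153516141 (value 21.0) lay on 35.6 and 14.7. The last 2, on chromosome 5 at 24031529-24032185 (value 20.6) and chromosome 2 at 93796119-93796689 (value 19.6), lay on 25.7 and 23.6. A Suz12 peak on chromosome 4, in the domain at 107105154-107119934, tied with the eighth at 19.6 and is not among the 8 because ties went by genomic order. It lay on 39.6. The highest H3K27me3 value under each of the 8 ran from 21.3 to 35.6. Under Suz12 peaks at or below the median Suz12 value, in domains with at least 2 H3K27me3 peaks, it ran from 9.44 to 38.6.

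Away from Suz12, H3K27me3 values fell within the first few kb and then stayed level. Leaving out the peaks under Suz12, the median value was 13.1 with a midpoint under 1 kb from the Suz12 midpoint (n = 66) and 13.0 from 1 to 2 kb (n = 225, interval 12.5 to 13.7). It was 12.1 from 2 to 3 kb (n = 210), 11.2 from 3 to 5 kb (n = 252) and 11.2 from 5 to 10 kb (n = 348). From 10 to 20 kb it was 10.9 (n = 198) and beyond 20 kb 10.3 (n = 50, from 10 domains). Peaks under 2 kb had a median of 13.0 (interval 12.5 to 13.7) and those at 5 kb or more 10.9 (interval 10.5 to 11.2), a difference of -2.05. The large step was thus between the peak under Suz12, at 22.6, and its nearest neighbours, and the slope beyond it was shallow. Values near 8 cannot fall further, because the list ends there, so the outer level is set in part by the minimum.

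**Figure D4:**
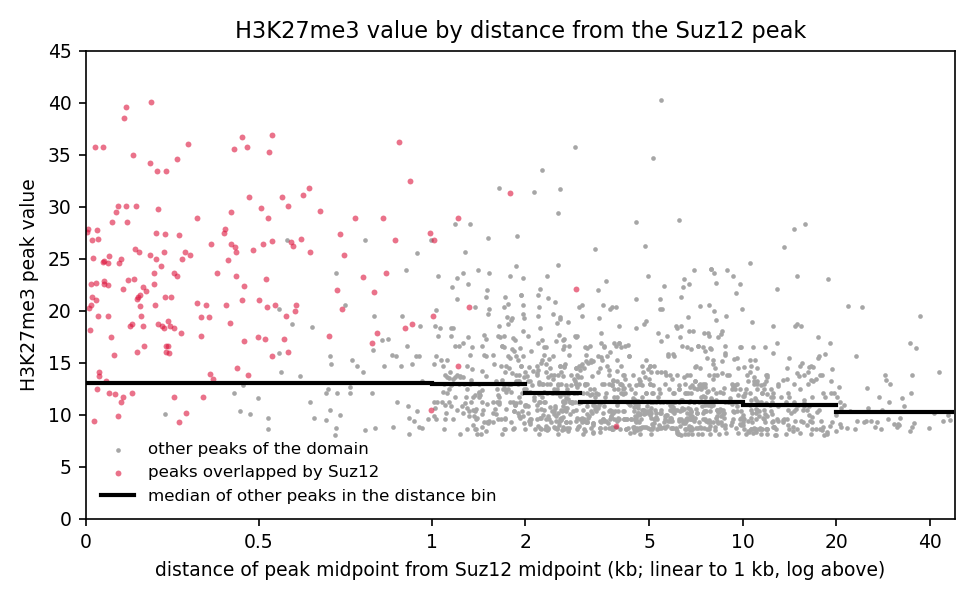
Value of each member peak against the distance of its midpoint from the Suz12 midpoint, with peaks overlapped by Suz12 in red and the others in grey. Black lines are medians of the grey points in each distance bin, which step from 13.1 under 1 kb to 11.2 at 3 to 10 kb, and single grey points above 25 occur out to 20 kb.

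The bins hold different sets of domains, 104 from 5 to 10 kb and 10 beyond 20 kb, so the fall was also read inside domains. In the 87 domains with other peaks both under 2 kb and at 5 kb or more, the near median was above the far median in 65 (74.7%, interval 64.3 to 83.4). The median difference was 3.29 (interval 1.94 to 4.46). On the 140 sides with at least 4 other peaks, the first peak out from Suz12 had a median of 14.1, the second 12.1, the third 11.5 and the fourth 11.2. Their median distances were 1500, 2638, 3804 and 5146 bp. Of the 250 sides with at least 2 other peaks, the first was above the outermost in 183 (73.2%, interval 67.3 to 78.6), with medians of 13.7 and 10.4.

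Peak width fell from 1 to 20 kb, as value did, and was out of step with value only at either extreme. Median width was 454 bp under 1 kb, 536 bp from 1 to 2 kb, 462 bp from 2 to 3 kb and 411 bp from 3 to 5 kb. It was 391 bp from 5 to 10 kb, 372 bp from 10 to 20 kb and 427 bp beyond 20 kb. Under 1 kb width is limited by the rule, because a wide peak so near would overlap Suz12 and be left out. Among peaks narrower than 500 bp alone, the median value was 10.9 under 1 kb (n = 38) and 11.5 from 1 to 2 kb (n = 100). It was 11.2 from 2 to 3 kb (n = 114), 10.4 from 3 to 5 kb (n = 150) and 10.4 from 5 to 10 kb (n = 223). From 10 to 20 kb it was 10.2 (n = 136) and beyond 20 kb 9.54 (n = 30). The narrow peaks nearest to Suz12 were thus not the strongest, and the differences among narrow peaks were smaller than among all. The part of width in the fall was not tested.

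The fall appeared whether or not Suz12 lay on the strongest peak. With Suz12 on it, the other peaks had medians of 12.6 under 2 kb, 11.3 from 2 to 5 kb and 10.7 beyond. With Suz12 off it, these were 14.4, 12.5 and 11.3, with the strongest peaks themselves among them. By Suz12 value, medians under 2 kb and at 5 kb or more were 12.9 and 10.9 above the median, and 13.1 and 11.2 at or below it. Where Suz12 lay outside the central 50% of the domain, the near and middle bins did not differ beyond their intervals, at 12.1 (interval 11.2 to 13.8) and 12.5 (interval 11.7 to 13.3), and the far bin was 11.2.

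Peaks of high value far from Suz12 were present in a minority of domains. In some of these the far peak was the strongest of its domain. An example is the peak of 40.3 on chromosome 8, 5.44 kb from Suz12. At 5 kb or more, 33 of 596 peaks (5.54%, interval 3.84 to 7.69) had a value of at least 20, in 25 of the 105 domains that reach so far. The share was 12.4% (36 of 291) under 2 kb, 67.6% (127 of 188) under Suz12 and 7.75% in the whole list.

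The 5 longest domains give the range of shapes. The longest, on chromosome 11 at 77740346-77791214, spanned 50.9 kb with 25 peaks and had Suz12 (331 bp, value 11.6) 4393 bp from its left end. Under Suz12 lay a 4390 bp peak of 23.6, next to it one of 17.5 at 2.91 kb, and no other peak exceeded 15.9. On chromosome 1 at 134078706-134122808 (44.1 kb, 31 peaks) the peak under Suz12 (value 10.9) had 26.8, and no other passed 17.6. On chromosome 2 at 163013063-163061584 (48.5 kb, 31 peaks) Suz12 (value 18.98) lay on 34.2, followed on the right by 17.6, 20.4, 9.48, 12.9, 10.7 and then 24.0 at 6.95 kb. The domain on chromosome 7 at 52418144-52467520 (49.4 kb, 28 peaks) had several maxima. Suz12 (200 bp, value 12.5) lay there on 25.4, with 28.5 at 4.53 kb and 26.2 at 13.6 kb on one side and 24.0 at 7.92 kb on the other. The fifth was the chromosome 11 domain at 96974919-97013752 with Suz12 near its end.

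H3K27me3 peaks also became sparse away from a lone Suz12 peak. Of the Suz12 midpoints, 98.9% were inside H3K27me3 peaks. This dropped to 64.7% at 1 kb, both directions pooled, 46.7% at 2 kb, 16.4% at 5 kb, 8.33% at 10 kb and 5.83% at 20 kb. Positions still inside the domain were 40.6% at 5 kb, 16.7% at 10 kb and 3.06% at 20 kb. The drop thus includes the ends of domains, and at 20 kb some of the peaks met belong to other domains. Around the 1273 Suz12 peaks of richer domains the share in H3K27me3 peaks was 90.7% at the midpoint, 76.8% at 1 kb, 53.8% at 5 kb and 17.9% at 20 kb. Positions there can lie under another Suz12 peak, and the richer domains were longer, so the lines are set side by side without a test. At the midpoint itself the order was the reverse, at 98.9% for the lone Suz12 peaks against 90.7%. Both groups were chosen by overlap with an H3K27me3 domain, so high shares at the midpoint follow in part from the rule. Nothing is read from their order.

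**Figure D5:**
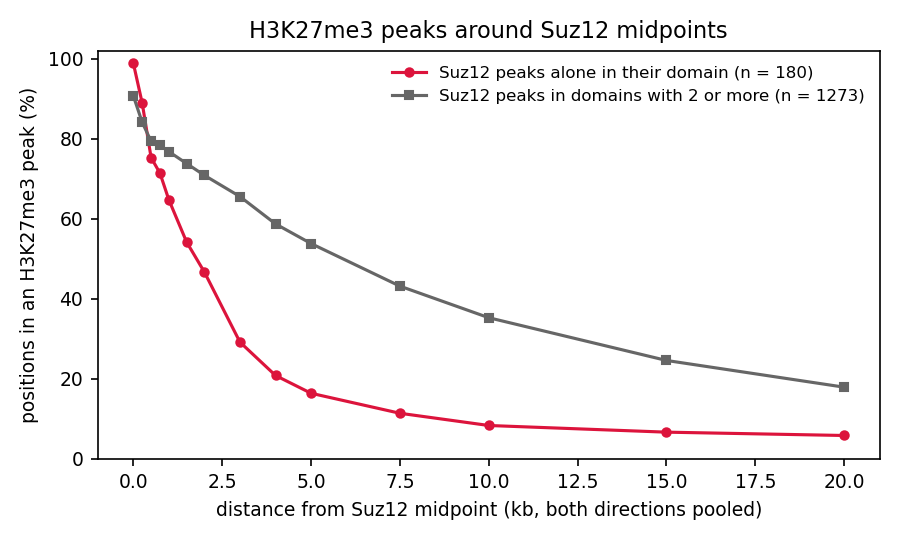
Share of positions that lie in any H3K27me3 peak, by distance in kb from the Suz12 midpoint with both directions pooled, for the 180 Suz12 peaks alone in their domain (red) and the 1273 in domains with 2 or more (grey). The red line falls from 98.9% to 16.4% at 5 kb and the grey line from 90.7% to 53.8%.

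Domains of equal length without Suz12 had a weaker and narrower strongest peak. From 10 to 20 kb, with at least 3 H3K27me3 peaks, the strongest peak had a median value of 23.6 and width of 1571 bp in 61 single-Suz12 domains. In 379 domains without Suz12 these were 18.1 and 789 bp, and in 93 with 2 or more 26.8 and 1468 bp. The remaining peaks differed less, with median values of 11.3, 10.9 and 12.1. H3K27me3 covered a median of 47.4% of the single-Suz12 domains, 33.4% of those without and 57.2% of those with 2 or more. Measured from the strongest peak rather than from Suz12, values under 2 kb and at 5 kb or more were 13.0 and 10.5 in single-Suz12 domains, 11.3 and 10.5 in domains without Suz12, and 13.3 and 12.1 in those with 2 or more. A fall away from the strongest peak was thus present without listed Suz12 too, and was smaller there in these medians. Unlike the fall from Suz12 above, these medians, and those of the remaining peaks, leave out only the strongest peak. Suz12 was on the strongest peak in 42 of the 61 single-Suz12 domains. In the rest, a peak under Suz12 stays among the others. Its part in the size of the fall was not tested.

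The strongest peak was in the central 50% of the length in 33 of 61 single-Suz12 domains of 10 to 20 kb (54.1%, interval 40.8 to 66.9). This was 47.5% (180 of 379, interval 42.4 to 52.7) without Suz12 and 73.1% (68 of 93, interval 62.9 to 81.8) with 2 or more. From 5 to 10 kb the shares were 72.7% (40 of 55), 51.2% (394 of 769) and 67.3% (33 of 49). From 20 kb upward the order of the first pair turned, with 53.8% (14 of 26, interval 33.4 to 73.4), 57.6% (68 of 118) and 69.5% (91 of 131). In the single-Suz12 domains of 10 to 20 kb, Suz12 itself was central in 65.6%, with an interval that overlaps that of the strongest peak.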

How the data were processed

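ChIP-seq peak lists of 1 Suz12 and 1 H3K27me3 library were used. Bowtie, MACS2 and build mm9 are named in the submitters' processing notes, without versions, roles or parameters, and the sources used here do not say whether the input served as control. The authors deposited a score for each peak; it was used as deposited, within its list. Such a score depends on read depth, width and the caller's settings. Peaks on chromosomes 1 to 19 were kept, joined and overlapped with pandas 2.3.3, numpy 2.4.6 and scipy 1.17.1 in Python 3.11.15, and plotted with matplotlib 3.10.9. The placement code was tested on simulated data: of 200 domains built with 1 Suz12 peak, 200 were recovered.

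Named domains are the 8 with the highest Suz12 value, and 5 each that are longest, that have Suz12 nearest an end or the centre (at least 10 kb long), or that have the largest shortfall. The domains, and the measures taken of them, were chosen with earlier results of these data known. Alternatives were other joining gaps, the upper 50% of either list, a stricter overlap and other definitions of length, place, strongest peak and distance. Gene names, gene lists and DNA sequences had been planned where an mm9 genome was at hand. They were not used here, because the gene and promoter tables at hand follow GRCm38.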

Additional observations from a re-analysis of the deposited data

How the results depend on the processing

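No paired analysis was possible because each antibody has a single library, and for the same reason no replicate could be left out. Of 30 alternatives, 24 left their result within the set tolerance, 6 moved it and 0 reversed it. The tolerance was the interval of a share or median, 1.5 times for the number of domains, and 0.716 for the fall with distance, which combines the interval widths of its near and far medians. The number of domains was 228 at a joining gap of 1000 bp, 169 at 10000 bp, 149 with the upper 50% of Suz12 peaks and 187 when H3K27me3 had to cover at least 50% of a Suz12 peak. With the upper 50% of H3K27me3 peaks, 57.5% of Suz12 midpoints were in the central 50%, and the difference in value under Suz12 was 8.62. At a gap of 1000 bp that difference was 9.38 and the median distance from the centre 0.31 (0.312473 against 0.372698). By H3K27me3-covered bases the median distance was 0.31 (0.30831). With the upper 50% of Suz12 peaks, Suz12 was on the strongest peak in 64.9% of domains. The upper 50% of H3K27me3 peaks holds only the higher values by its own rule. The cause of these shifts was not tested. The fall with distance lay between -2.53 and -1.37. Both lists end at a value of 8, and the depth is unknown, so weaker Suz12 sites in these domains are not described.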
